A study of Mus musculus with 46 samples.

Results

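The genes described here are the NF-kB subunits Nfkb1, Nfkb2, Rel and Relb, the inhibitors Nfkbia, Nfkbib, Nfkbie, Nfkbiz and Tnfaip3, and the cytokine gene Tnf. They were picked by symbol, and they make up 10 of the 21231 genes listed in at least 1 of the study's 3 expression tables. All 10 had values in the 2 tables of sorted microglia, and 9 in the table of the subventricular zone (SVZ), where Tnf was not analysed here. The libraries came from C57BL/6 mice, 2 months old when treatment began, and the study examined microglia that refill the brain after their removal with PLX3397, an inhibitor of the CSF1R kinase on which microglia depend for survival, which also acts on KIT and FLT3.

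The largest table held 24 libraries labelled as myeloid cells from whole hemispheres, which the study's methods describe as sorted CD11b+CD45int cells. Control mice contributed 3 libraries without LPS (0 hr), 5 libraries 6 hr after LPS and 4 libraries 24 hr after LPS. LPS, a bacterial cell wall component from E. coli, was injected into the abdomen at 0.33 mg/kg. Mice of the WM repopulation model, named for the white matter from which microglia spread through the brain, had received 600 ppm PLX3397 for 14 days and then 28 days without it, and gave 4 libraries at each of 0, 6 and 24 hr. A separate table held 4 control libraries and 3 libraries from the GLOBAL repopulation model (7 days of PLX3397, 28 days without it), in which cells reappear across the whole brain at the same time. The SVZ table held 5 libraries each from control tissue, tissue after 14 days of PLX3397 and tissue 5 days into recovery. Control mice were never given PLX3397. The CD11b and CD45 gate does not by itself separate resident microglia from other myeloid cells. The study counts n in mice, with an n of 3 to 5 for the sorted cells under LPS and 5 for the SVZ tissue. The labels do not state that each library was 1 mouse, so the p-values measure the spread between libraries.

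In resting cells the NF-kB dimers built from these subunits are held in the cytoplasm by the IkB proteins. When Toll-like receptor 4 senses LPS, or a TNF receptor binds its ligand, the IkB kinases mark IkB for destruction and the dimers enter the nucleus. Several of the genes they switch on encode their own inhibitors, among them Nfkbia and Tnfaip3, so that the levels of these transcripts are widely read as a record of recent NF-kB activity.

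The sequences below are shown because these promoters hold the DNA letters that NF-kB dimers prefer. RefSeq promoter windows of the GRCm38.p6 assembly (mm10, the build of the deposited tables) were matched for 7 of the 10 genes, in 10 windows. The 10-base kB consensus was searched on both strands in the 250 bases before each start. It was present in windows of 5 genes, in 7 of 10 windows (3 of them of Nfkb2, of which 2 overlap each other), against 2382 of all 32851 windows (7.25%). No match was found in the windows of Tnf and Nfkbib. Each line is read 5′ to 3′ along the gene's strand, and capitals mark the match.
Nfkbia, chr12:55492657-55492686, minus strand, 29 to 20 bases before the start: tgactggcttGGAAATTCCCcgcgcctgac
Nfkb2, chr19:46304689-46304718, plus strand, 39 to 29 bases before a start that lies inside the gene: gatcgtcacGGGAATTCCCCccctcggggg
Rel, chr11:23771041-23771070, minus strand, 92 to 82 bases before the start: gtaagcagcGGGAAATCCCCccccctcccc
Nfkbie, chr17:45555584-45555613, plus strand, 106 to 97 bases before the start: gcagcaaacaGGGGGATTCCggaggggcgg
Tnfaip3, chr10:19015411-19015432, minus strand, 12 to 3 bases before the start: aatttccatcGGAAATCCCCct
The lines show 1 of 2 match positions of Tnfaip3 and 1 of 4 of Nfkb2. Those printed for Nfkb2 and Rel are pairs of overlapping matches. A match describes letters in a window and is no evidence of binding in these cells.

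Each table held FPKM, a read count divided by gene length and library size, and values were compared only within a table. The library size in this division was recovered from the step that 1 read makes. It was 5.24 to 10.4 M reads (M, mega) per library in the WM table, 2.21 to 5.37 M reads in the GLOBAL table and 4.57 to 10.6 M reads in the SVZ table. Reads on the listed genes of the WM table came to 92.0 to 114% of it, so it was a scaled size and not the sequencing depth. All 15 microglia markers were listed in the WM table, and their summed level was 22601 to 50183 FPKM, against 1.13 to 8.67 FPKM for neuron markers. Neutrophil markers were also present, with a summed level between 441 and 15308.5 FPKM. There were 2 libraries of the WM table that stood apart. Control 6 hr replicate 2 had a mean correlation of 0.938 with the rest of its group, against 0.955 to 0.967 for the other control 6 hr libraries. Its level was above the mean of the other 4 control 6 hr libraries for all 10 genes, by 2.90-fold for Nfkbiz at the least and 14.7-fold for Tnfaip3 at the most. Over all tested genes, 534 (4.21%) were more than 2-fold above the other 4 control 6 hr libraries in it and 726 (5.72%) more than 2-fold below. Its cytokine transcripts Il1b (12.2-fold) and Ccl3 (9.48-fold) were higher in the same way, whereas Saa3, an acute phase gene induced by LPS, was at 1.13-fold. Its microglia marker sum was 23825 FPKM, within the range of its group, and its neutrophil marker sum was 5803 FPKM, against 918 to 4222 FPKM in the others. The part of either in its values was not tested. Since all groups of a table share an estimate of spread, this library widened the error of every comparison, and results are given with and without it. Control 24 hr replicate 4 had a mean correlation of 0.947 with its group, against 0.971 to 0.972 for the other 3. Without it no member was called in control microglia between 6 and 24 hr and 1 (Nfkbiz) between origins at 24 hr, where the counts with it were 1 and 2.

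At 0 hr in control microglia the most abundant of the transcripts was Nfkbia at 779 ± 19.7 FPKM (SD, n = 3), followed by Tnf at 107 ± 12.7 FPKM. Nfkbiz, Nfkb1, Nfkbib and Rel lay between 39.9 and 52.6 FPKM, and each overlapped its neighbour in this order. Tnfaip3 (24.7 ± 2.15 FPKM) and Nfkbie (23.2 ± 1.91 FPKM) overlapped too. Nfkb2 (17.1 ± 1.10 FPKM) and Relb (9.06 ± 3.01 FPKM) were lowest and did not overlap. The abundant end was thus held by an inhibitor and a cytokine, and the lower end by the subunits of the noncanonical arm.

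**Figure D1:**
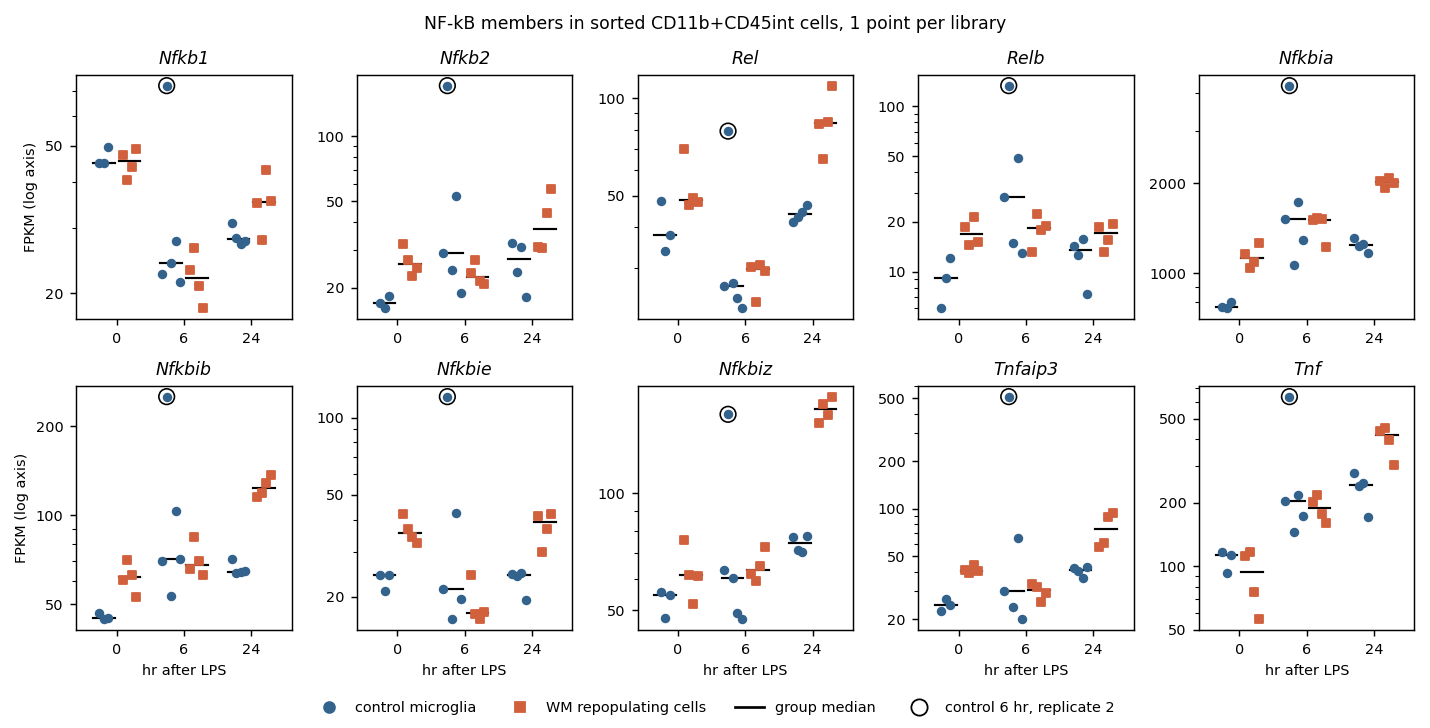
FPKM (log scale) of each gene in every library of the WM table by hours after LPS, for control microglia and WM repopulating cells, with a line at each group median and a ring around control 6 hr replicate 2. Control 6 hr replicate 2 sits above all other control 6 hr libraries in all 10 panels, and at 24 hr the 4 WM libraries lie above the 4 control libraries for Tnf, Nfkbia, Nfkbib, Nfkbie, Nfkbiz, Rel and Tnfaip3.

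Tnf (Entrez 21926, chr17:35199367-35202007) encodes tumor necrosis factor, a cytokine that microglia release after LPS and that itself activates NF-kB. In control microglia its level was 116, 92.5 and 113 FPKM at 0 hr, 205, 637, 145, 217 and 174 FPKM at 6 hr, and 276, 240, 247 and 170 FPKM at 24 hr. In WM repopulating cells it was 112, 117, 74.99 and 56.1 FPKM at 0 hr, 202, 218, 177 and 160 FPKM at 6 hr, and 437, 450, 398 and 300 FPKM at 24 hr. Every library after LPS was thus above every 0 hr library of its origin, and the 4 WM libraries at 24 hr were above the 4 control libraries at 24 hr. Tnf rose at 6 hr by 1.13 ± 0.32 (log2, ± SE, adjusted p = 0.00568, limma) in control microglia and by 1.12 ± 0.31 (adjusted p = 0.00568) in WM cells. At 24 hr the rise over 0 hr was 1.10 ± 0.33 (adjusted p = 0.0194) in control microglia and 2.17 ± 0.31 (adjusted p = 2.1e-05) in WM cells. WM cells alone passed the test between 6 and 24 hr, with a gain of 1.05 ± 0.31 (adjusted p = 0.0202), but the difference between origins in that step (1.09) missed the threshold (adjusted p = 0.40, and 0.437 without control 6 hr replicate 2). At 24 hr WM cells held 1.70-fold the control level (log2 difference 0.77 ± 0.31, adjusted p = 0.175), a difference that passed without control 6 hr replicate 2 (adjusted p = 0.0253). The control rise at 24 hr was lost without control 0 hr replicate 2 or control 24 hr replicate 1 (highest adjusted p = 0.0778), and the WM gain from 6 to 24 hr without WM 6 hr replicate 4, WM 24 hr replicate 1 or WM 24 hr replicate 2 (highest adjusted p = 0.0551). Tnf and Nfkbib were among the genes that the study itself drew from these libraries, so their direction is not independent evidence.

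Nfkbia (Entrez 18035, chr12:55489409-55492647) encodes IkB alpha, an inhibitor whose gene is a prompt target of NF-kB. Its level in control microglia was 770, 766 and 802 FPKM at 0 hr, 1520, 4239, 1063, 1737 and 1290 FPKM at 6 hr, and 1313, 1237, 1257 and 1169 FPKM at 24 hr. In WM cells it was 1159, 1039, 1089 and 1263 FPKM at 0 hr, 1506, 1533, 1519 and 1224 FPKM at 6 hr, and 2042, 1926, 2078 and 2006 FPKM at 24 hr. The WM libraries started above the control libraries, overlapped them at 6 hr and were above them again at 24 hr. Nfkbia rose in control microglia at 6 hr (1.15 ± 0.25, adjusted p = 0.000794) and in WM cells at 24 hr (0.83 ± 0.25, adjusted p = 0.0203, but 0.0544 without WM 0 hr replicate 2). The values were 0.67 (adjusted p = 0.0748) in control microglia at 24 hr and 0.34 (adjusted p = 0.285) in WM cells at 6 hr, and both passed without control 6 hr replicate 2 (adjusted p = 0.000859 and 0.033). The WM level was 1.46-fold the control level at 0 hr (adjusted p = 0.427) and 1.62-fold at 24 hr (adjusted p = 0.119), and these too passed without that library (adjusted p = 0.042 and 0.00177).

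Nfkbib (Entrez 18036, chr7:28758251-28766644) encodes IkB beta, the slower inhibitor of the same family. It was at 44.5 to 46.5 FPKM in control microglia at 0 hr, 53.2 to 252 FPKM at 6 hr and 63.7 to 71.0 FPKM at 24 hr. In WM cells it was at 52.9 to 70.3 FPKM at 0 hr, 62.6 to 84.5 FPKM at 6 hr, and 115, 119, 128 and 136 FPKM at 24 hr, above all other libraries but control 6 hr replicate 2. Nfkbib rose in control microglia at 6 hr (1.02 ± 0.28, adjusted p = 0.00508) and in WM cells at 24 hr (1.01 ± 0.27, adjusted p = 0.0111). In control microglia at 24 hr the change over 0 hr was 0.53 (adjusted p = 0.213, and 0.0148 without control 6 hr replicate 2). In WM cells the step from 6 to 24 hr (0.81 ± 0.27) had an adjusted p of 0.0445, which missed the threshold when any of 17 libraries was left out (highest adjusted p over all alternatives 0.0985) and was 0.000327 without control 6 hr replicate 2. The difference between origins at 24 hr was 1.89-fold (0.91 ± 0.27, adjusted p = 0.0613), and it passed without control 6 hr replicate 2 (adjusted p = 0.000518).

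Nfkbiz (Entrez 80859, chr16:55811375-55838954) encodes IkB zeta, a nuclear IkB protein that is itself needed for a set of late NF-kB targets. Its level in control microglia was 55.6, 47.7 and 54.7 FPKM at 0 hr, 63.3, 160, 60.4, 49.1 and 47.4 FPKM at 6 hr, and 77.1, 71.6, 70.5 and 77.7 FPKM at 24 hr. In WM cells it was 75.9, 61.7, 51.7 and 61.2 FPKM at 0 hr, 62.0, 59.3, 64.9 and 72.9 FPKM at 6 hr, and 152, 170, 159 and 178 FPKM at 24 hr. The WM groups at 0 and 6 hr overlapped, and all 4 WM libraries at 24 hr were above the other WM libraries and above every control 24 hr library. Nfkbiz rose in WM cells at 24 hr by 1.39 ± 0.23 over 0 hr (adjusted p = 0.000151) and by 1.33 ± 0.23 over 6 hr (adjusted p = 0.000353). At 24 hr it was 2.22-fold higher in WM cells than in control microglia (1.14 ± 0.23, adjusted p = 0.0057), and this call was kept in 31 of 31 alternatives (highest adjusted p = 0.0194). In control microglia the change over 0 hr was 0.36 at 6 hr (adjusted p = 0.237) and 0.49 at 24 hr (adjusted p = 0.175, and 0.00752 without control 6 hr replicate 2).

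Nfkbie (Entrez 18037, chr17:45555700-45563169), which encodes IkB epsilon, was lowest at 6 hr in WM cells, a course shared with Rel, Nfkb1 and Tnfaip3. It was at 42.2, 36.7, 34.1 and 32.3 FPKM at 0 hr, 24.3, 17.1, 16.4 and 17.5 FPKM at 6 hr, and 41.3, 29.9, 36.8 and 42.0 FPKM at 24 hr, so the 6 hr libraries were the lowest and did not overlap the others. Nfkbie fell by 0.92 on the log2 scale at 6 hr (SE 0.36, adjusted p = 0.0464), a call lost when any of 16 libraries was left out (highest adjusted p over all alternatives 0.101) but kept without control 6 hr replicate 2 (adjusted p = 0.000671). The step from 6 to 24 hr was 0.96 (adjusted p = 0.0728, and 0.00143 without control 6 hr replicate 2). Control microglia were at 20.98 to 24.4 FPKM at 0 hr, 16.4 to 121 FPKM at 6 hr and 19.5 to 24.6 FPKM at 24 hr, with no call.

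Tnfaip3 (Entrez 21929, chr10:19000910-19015410) encodes A20, an enzyme that edits ubiquitin chains and shuts off signaling to the IkB kinases. Its level in control microglia was 22.7, 27.0 and 24.5 FPKM at 0 hr, 30.4, 512, 23.8, 65.0 and 20.1 FPKM at 6 hr, and 42.1, 40.3, 36.4 and 43.0 FPKM at 24 hr. In WM cells it was 40.7, 39.3, 44.4 and 40.4 FPKM at 0 hr, 33.4, 32.1, 25.9 and 29.4 FPKM at 6 hr, and 57.2, 60.3, 88.6 and 93.5 FPKM at 24 hr. The WM 6 hr libraries were below the WM 0 hr libraries, and the WM 24 hr libraries above both. With control 6 hr replicate 2 in the fit Tnfaip3 passed in no comparison, its SE being 0.57 for the 24 hr difference between origins (log2 0.84, 1.85-fold, adjusted p = 0.471). Without it, Tnfaip3 rose at 24 hr over 0 hr in control microglia (adjusted p = 0.0455) and in WM cells (adjusted p = 0.0127), and was higher in WM cells than in control microglia at 24 hr (adjusted p = 0.0314).

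Nfkb1 (Entrez 18033, chr3:135584655-135691969) encodes p105, the precursor of the p50 subunit. It was at 44.9, 44.9 and 49.7 FPKM in control microglia at 0 hr, 22.5, 72.6, 24.1, 27.7 and 21.5 FPKM at 6 hr, and 30.9, 28.3, 27.1 and 27.8 FPKM at 24 hr. In WM cells it was at 40.5 to 48.8 FPKM at 0 hr, 18.3 to 26.5 FPKM at 6 hr and 27.9 to 42.9 FPKM at 24 hr. All WM libraries and 4 of 5 control libraries were lower at 6 hr than at 0 hr. Nfkb1 fell by 0.996 on the log2 scale at 6 hr in WM cells (SE 0.24, adjusted p = 0.00201), and by 0.62 in control microglia (SE 0.25, adjusted p = 0.0479). The control call was lost when any of 21 libraries was left out, although without control 6 hr replicate 2 the value was -0.93 (adjusted p = 1.05e-05).

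Rel (Entrez 19696, chr11:23736847-23770969) encodes c-Rel, a subunit that activates transcription and is typical of blood-derived and immune cells. Control microglia were at 48.1, 33.7 and 37.9 FPKM at 0 hr, 26.4, 79.3, 26.9, 24.3 and 22.5 FPKM at 6 hr, and 41.5, 43.2, 44.7 and 47.0 FPKM at 24 hr. WM cells were at 69.9, 46.8, 49.3 and 47.8 FPKM at 0 hr, 30.2, 23.5, 30.5 and 29.3 FPKM at 6 hr, and 83.7, 65.1, 84.7 and 110 FPKM at 24 hr. The WM libraries were thus lowest at 6 hr, and at 24 hr all 4 were above every control 24 hr library. Rel fell by 0.88 on the log2 scale in WM cells at 6 hr (SE 0.26, adjusted p = 0.00954) and rose by 1.54 ± 0.26 from 6 to 24 hr (adjusted p = 0.000233). At 24 hr its change over 0 hr in WM cells was 0.67 (adjusted p = 0.0757, and 0.00251 without control 6 hr replicate 2). In control microglia the 6 hr change was -0.31 (adjusted p = 0.367) with control 6 hr replicate 2 and -0.64 (adjusted p = 0.00295) without it. At 24 hr Rel was 1.95-fold higher in WM cells (0.92 ± 0.26, adjusted p = 0.045), which missed the threshold when any of 15 libraries was left out (adjusted p = 0.072 without control 24 hr replicate 4) and had an adjusted p of 0.000637 without control 6 hr replicate 2.

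Nfkb2 (Entrez 18034, chr19:46300994-46312400) encodes p100, the precursor of p52, and Relb (Entrez 19698, chr7:19606217-19629438) encodes its usual partner. In control microglia Nfkb2 was at 16.1 to 18.3 FPKM at 0 hr, 29.1, 171, 24.1, 52.9 and 18.9 FPKM at 6 hr, and 18.1 to 32.3 FPKM at 24 hr. Relb was at 6.01, 9.16 and 12.02 FPKM at 0 hr, 28.3, 134, 14.9, 48.9 and 12.99 FPKM at 6 hr, and 7.28 to 15.7 FPKM at 24 hr. All 5 control libraries at 6 hr were above all 3 at 0 hr for both genes, and the 5 were spread over a wider range than any other group of the WM table. Nfkb2 rose at 6 hr in control microglia by 1.23 ± 0.42 (adjusted p = 0.0198), a call lost without control 0 hr replicate 1 or 2. Its value was 0.73 (adjusted p = 0.0271) without control 6 hr replicate 2. Relb rose by 1.79 ± 0.45 (adjusted p = 0.00266) and fell by 1.37 on the log2 scale from 6 to 24 hr (SE 0.42, adjusted p = 0.0157, but 0.063 without control 24 hr replicate 4). These Relb values were 1.29 (adjusted p = 0.00266) and -0.87 (adjusted p = 0.0355) without control 6 hr replicate 2. WM cells held Nfkb2 at 20.8 to 31.9 FPKM at 0 and 6 hr and at 30.5 to 56.9 FPKM at 24 hr, and Relb at 13.1 to 22.3 FPKM at all times, with no call for either gene when all 24 libraries were fitted. Nfkb2 rose in WM cells from 6 to 24 hr once control 6 hr replicate 2 was left out (0.74, adjusted p = 0.0308).

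**Figure D2:**
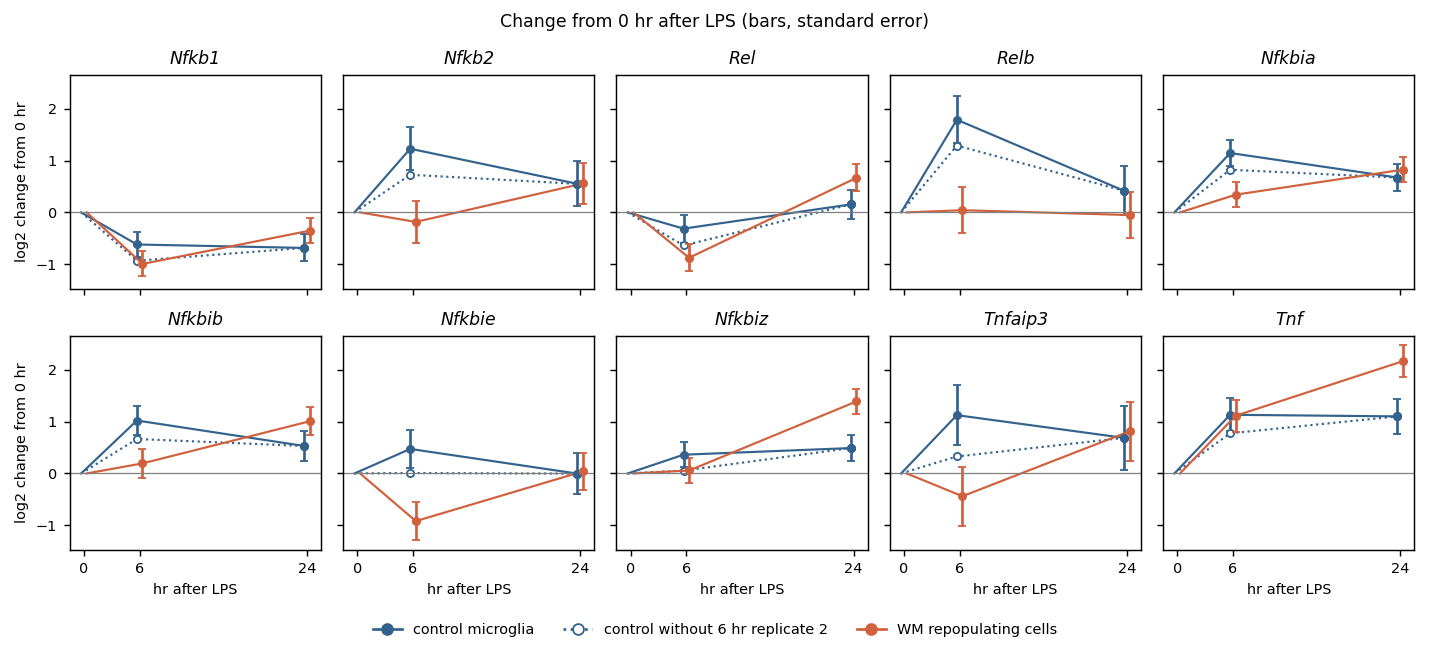
Fitted log2 change in FPKM + 1 from 0 hr for each gene at 6 and 24 hr, in control microglia and in WM repopulating cells, with bars of 1 SE, and a dotted line for control microglia without control 6 hr replicate 2. Tnf is above 0 in all 4 positions, Nfkb1 is below 0 in all 4, and Tnf (2.17) and Nfkbiz (1.39) are the farthest from 0 in WM cells at 24 hr.

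Counted over the 10 genes, LPS at 6 hr in control microglia raised 5 (Tnf, Nfkbia, Nfkbib, Nfkb2 and Relb) and lowered 1 (Nfkb1), where 21.4% of all 12684 genes tested were called higher and 21.1% lower. The median change of the 10 was 1.07 on the log2 scale, against 0.01 over all genes, and without control 6 hr replicate 2 it was 0.50. In WM cells at 6 hr, 1 gene was higher (Tnf, background 19.3%) and 3 were lower (Nfkb1, Rel and Nfkbie, background 19.5%), and the median was -0.07. Without control 6 hr replicate 2 the counts at 6 hr were 5 higher and 2 lower in control microglia (backgrounds 20.5% and 19.8%) and 2 higher and 3 lower in WM cells (backgrounds 20.4% and 20.8%). The share called higher in control microglia was above its background in both settings, and each of the other counts was within about 1 gene of its background share of 10 genes. Over the same groups, summed monocyte markers were 120 to 367 FPKM at 0 hr and 1391 to 2631 FPKM at 6 hr in control libraries, and 154 to 448 FPKM and 1333 to 3570 FPKM in WM libraries. Summed microglia markers were 40654 to 47222 FPKM at 0 hr and 22601 to 24254 FPKM at 6 hr in control libraries, and 42193 to 50183 FPKM and 25349.5 to 29658 FPKM in WM libraries. Sums of neuroblast (1.94 to 4.45 and 6.06 to 10.9 FPKM), neuron (2.26 to 3.39 and 3.47 to 6.47 FPKM) and oligodendrocyte markers (31.7 to 39.5 and 19.1 to 29.1 FPKM) did not overlap between 0 and 6 hr in control libraries either, nor did those of neurons (2.07 to 4.02 and 4.38 to 8.67 FPKM) and of endothelial cells and pericytes (2.24 to 5.07 and 5.12 to 6.87 FPKM) in WM libraries. The part of these markers' cells in the members' changes was not tested.

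At 24 hr against 0 hr, 1 gene was higher in control microglia (Tnf, background 12.1%) and 4 in WM cells (Tnf, Nfkbia, Nfkbib and Nfkbiz, background 10.5%), with medians of 0.51 and 0.74. Without control 6 hr replicate 2 these were 5 higher (background 13.4%) and 1 lower (Nfkb1, background 10.9%) in control microglia and 6 higher in WM cells (background 12%). From 6 to 24 hr, 1 gene fell in control microglia (Relb, background 13.3%), and 4 rose in WM cells (Rel, Nfkbib, Nfkbiz and Tnf, background 8.19%). Leaving out control 6 hr replicate 2 gave 2 higher (Rel and Nfkbiz, background 13.3%) and 1 lower (Relb, background 11.6%) in control microglia, and 9 higher in WM cells (all but Relb, background 10.4%). In WM cells every 24 hr library was above every 6 hr library for 9 of the 10 genes, where 12.3% of all genes had this pattern. Between 0 and 24 hr the summed monocyte markers of control libraries were 120 to 367 and 479 to 669 FPKM, and those of microglia 40654 to 47222 and 27128 to 36728 FPKM. Those of astrocytes were 55.6 to 61.6 and 39.0 to 43.6 FPKM, of oligodendrocytes 31.7 to 39.5 and 10.7 to 27.3 FPKM, of ependyma and choroid plexus 72.9 to 217 and 35.3 to 51.7 FPKM, and of neuroblasts 1.94 to 4.45 and 6.49 to 19.3 FPKM. In WM libraries those of ependyma and choroid plexus were 278 to 714 and 10.3 to 32.0 FPKM. From 6 to 24 hr in WM cells the summed monocyte markers were 1333 to 3570 and 148 to 746 FPKM, those of microglia 25349.5 to 29658 and 33883 to 43742 FPKM, those of ependyma and choroid plexus 156 to 596 and 10.3 to 32.0 FPKM, those of border-associated macrophages 49.5 to 81.6 and 21.8 to 45.3 FPKM, and those of neuroblasts 5.50 to 15.01 and 2.25 to 3.75 FPKM. In control libraries over the same step the sums of microglia were 22601 to 24254 and 27128 to 36728 FPKM, of monocytes 1391 to 2631 and 479 to 669 FPKM, of neutrophils 918 to 5803 and 6420 to 15308.5 FPKM, of astrocytes 56.5 to 76.8 and 39.0 to 43.6 FPKM, and of ependyma and choroid plexus 95.4 to 1353 and 35.3 to 51.7 FPKM. Their part in the result was not tested.

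Set directly against control microglia, WM cells at 0 hr gave no called member (background 1.21% in either direction, no member and 1514 of all genes at an unadjusted p under 0.05 by limma). Every WM library was nevertheless above every control library for 6 of the 10 genes (Nfkb2, Relb, Nfkbia, Nfkbib, Nfkbie and Tnfaip3), with ratios of the means from 1.36 for Nfkbib to 1.92 for Relb, where 7.61% of all genes had this pattern. Without control 6 hr replicate 2, Nfkbia passed (background 1.01%), and 7 members and 1737 of 12640 genes had an unadjusted p under 0.05. Several marker sums also separated these groups, with 72.9 to 217 FPKM in control and 278 to 714 FPKM in WM libraries for ependyma and choroid plexus, 8.19 to 12.8 and 2.24 to 5.07 FPKM for endothelial cells and pericytes, 8.58 to 28.0 and 28.3 to 68.0 FPKM for lymphocytes, 55.6 to 61.6 and 37.5 to 52.2 FPKM for astrocytes, and 31.7 to 39.5 and 28.4 to 31.3 FPKM for oligodendrocytes. Their part in the members' levels was not tested. At 6 hr no member was called with that library (background 0.323%, 2 members and 1164 of all genes at an unadjusted p under 0.05) or without it (background 0.356%). The differences at 6 hr lay between -0.85 and -0.07 with it and between -0.35 and 0.24 without it. Summed microglia markers at 6 hr did not overlap, at 22601 to 24254 FPKM in control and 25349.5 to 29658 FPKM in WM libraries, and their part was not tested.

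At 24 hr Rel and Nfkbiz were higher in WM cells (background 1.68%). The Rel call was lost with a pseudocount of 0.1, no filter, median-ratio scaling, no trend or the replicate block, while that of Nfkbiz was kept. Every WM library was above every control library for 7 of 10 genes, where 5.76% of all genes had this pattern. The 7 were Rel, Nfkbia, Nfkbib, Nfkbie, Nfkbiz, Tnfaip3 and Tnf, at 1.62 to 2.22-fold the control level. The median difference of the 10 genes was 0.73, against 0.02 over all genes. Without control 6 hr replicate 2, 6 genes were higher (background 2.42%), with Nfkbie the only 1 of the 7 not called (adjusted p = 0.0521). Summed neutrophil markers at 24 hr were 6420 to 15308.5 FPKM in control libraries and 3193 to 7230 FPKM in WM libraries, so these overlapped. Marker sums of border-associated macrophages (62.8 to 81.3 and 21.8 to 45.3 FPKM), ependyma and choroid plexus (35.3 to 51.7 and 10.3 to 32.0 FPKM), endothelial cells and pericytes (7.72 to 12.6 and 1.31 to 7.21 FPKM) and neuroblasts (6.49 to 19.3 and 2.25 to 3.75 FPKM) did not overlap. Summed microglia markers, which overlapped, were 27128 to 36728 FPKM in control and 33883 to 43742 FPKM in WM libraries. Their part in the result was not tested, and in sorted bulk RNA a change in the share of cells and a change in RNA per cell cannot be told apart.

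**Figure D3:**
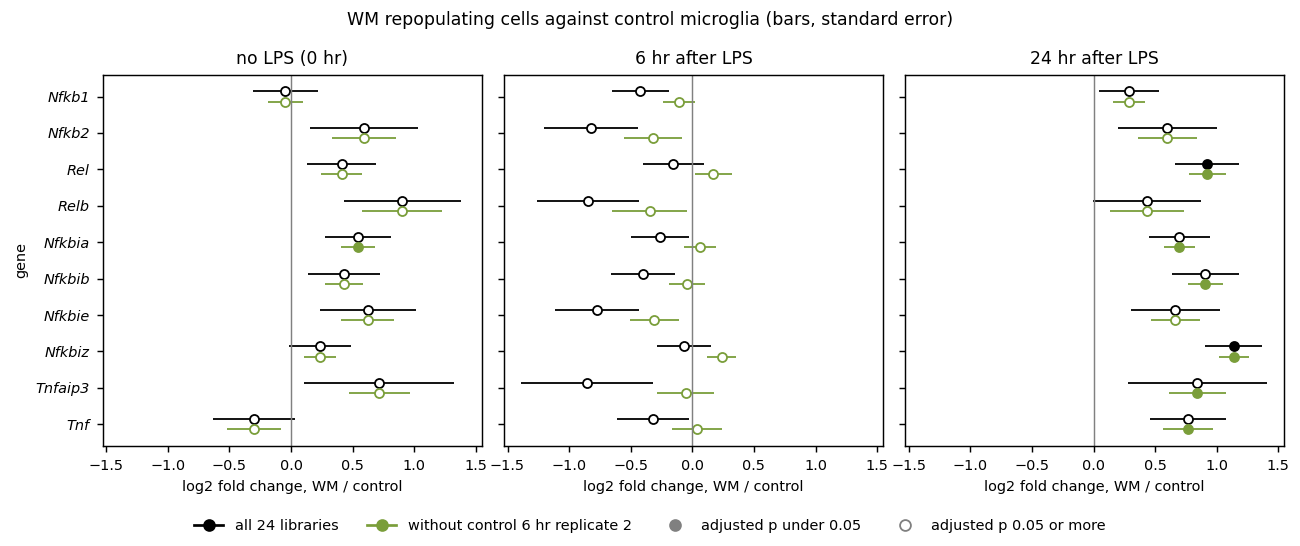
Fitted log2 difference in FPKM + 1, WM repopulating cells minus control microglia, for each gene at 0, 6 and 24 hr, with bars of 1 SE, from the fits with and without control 6 hr replicate 2, filled where the adjusted p was under 0.05. At 24 hr all 10 differences are above 0 in both fits, and at 6 hr those of the fit with that library are all below 0.

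Whether the response to LPS depended on origin was tested as an interaction. For 6 hr against 0 hr no member passed (background 0.0237%, 5 members and 913 of 12684 genes at an unadjusted p under 0.05), and the same held for 24 hr against 0 hr (background 0.0867%, 2 members and 1105 genes). For 24 hr against 6 hr none passed after adjustment (background 0.158%) while all 10 members and 1208 of 12684 genes had an unadjusted p under 0.05, with values from 0.71 for Nfkb1 to 1.69 for Tnfaip3, all above 0 (the WM step minus the control step). For Relb the steps themselves were -0.09 in WM cells and -1.37 in control microglia, so neither was a gain. The values were smaller without control 6 hr replicate 2, from 0.40 for Nfkb1 to 0.97 for Nfkbie, with Tnfaip3 at 0.90, and 9 members and 1086 genes had an unadjusted p under 0.05. In that setting Nfkbib (0.95, adjusted p = 0.0485) and Nfkbiz (0.90, adjusted p = 0.0226) passed for 24 hr against 6 hr (background 0.0475%), and Nfkbiz (0.90, adjusted p = 0.0343) for 24 hr against 0 hr (background 0.0791%). None passed for 6 hr against 0 hr without that library (background 0%, 6 members and 845 genes at an unadjusted p under 0.05, limma). These comparisons share control and WM groups with those above and are not separate evidence.

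Among other genes of the pathway, taken from fixed lists, the known targets of NF-kB had the highest median change at 6 hr. The shares of all genes called at 6 hr were 21.4% higher and 21.1% lower in control microglia and 19.3% and 19.5% in WM cells, as above, and several lists lay near them. Of 26 targets tested, 20 rose and 1 fell at 6 hr in control microglia (median 1.496), and 13 rose and 2 fell in WM cells (median 1.07). Saa3 rose by 12.12 in control microglia and by 11.77 in WM cells. At 24 hr 11 targets rose in control microglia and 14 rose and 1 fell in WM cells (backgrounds 12.1% and 10.5% higher). With control 6 hr replicate 2 left out, 19 rose and 2 fell at 6 hr and 17 rose and 2 fell at 24 hr in control microglia, and 17 rose and 2 fell at 6 hr and 16 rose and 3 fell at 24 hr in WM cells. From 6 to 24 hr 1 target rose and 13 fell in control microglia (median -1.03, background 13.3% lower). In WM cells 4 rose and 8 fell (median -0.25, background 8.19% higher). Leaving control 6 hr replicate 2 out gave 6 higher and 13 lower in control microglia (median -0.46, backgrounds 13.3% and 11.6%). In WM cells it gave 9 higher and 10 lower (median -0.25, background 10.4% higher). The share of all genes that fell in WM cells over this step is not given. The counts of falling targets there are thus not set against a background. Except where stated, the 6 hr counts and values of the other lists are given only from the fit with control 6 hr replicate 2. Among 16 kinases of the canonical and noncanonical arms, 7 rose and 2 fell at 6 hr in control microglia and 5 rose and 1 fell in WM cells, led by Ikbke, an IKK-related kinase, at 4.70 ± 0.37 and 4.01 ± 0.36. Of 19 negative regulators, 9 rose and 1 fell in control microglia and 6 rose and 4 fell in WM cells, and Tnip3, a partner of A20, rose by 3.22 and 2.25. Of 20 genes of the Toll-like receptor arm, 7 rose and 1 fell in control microglia and 8 rose and 4 fell in WM cells. Tlr4, the receptor for LPS, had a value of -0.73 (adjusted p = 0.05, not called) in control microglia and fell in WM cells by 0.89 on the log2 scale (adjusted p = 0.017). Of 13 genes of the TNF receptor arm, 4 rose and 2 fell in control microglia and 2 rose and 2 fell in WM cells. The TNF receptors Tnfrsf1a and Tnfrsf1b rose in control microglia, by 0.45 (adjusted p = 0.021) and 0.63 (adjusted p = 0.035, but 0.095 without control 6 hr replicate 2), and had values of 0.18 (adjusted p = 0.37) and 0.13 (adjusted p = 0.70) in WM cells. Map3k14, the kinase that starts the noncanonical arm, fell by 0.47 on the log2 scale in control microglia (adjusted p = 0.047, but 0.088 without that library) and had a value of -0.11 (adjusted p = 0.67) in WM cells. Cyld, a deubiquitinase that restrains the pathway, fell by 0.41 on the log2 scale in WM cells (adjusted p = 0.019), with a value of -0.13 (adjusted p = 0.499) in control microglia. Ikbkb, the catalytic IkB kinase, had values of 0.20 (adjusted p = 0.19) and -0.21 (adjusted p = 0.18).

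Of 7 further NF-kB genes, 1 rose and 1 fell at 6 hr in control microglia, and 2 rose and 2 fell in WM cells. With control 6 hr replicate 2 in the fit, Bcl3, a nuclear IkB protein that partners p50 and p52, rose by 4.04 ± 0.48 in control microglia and by 2.03 ± 0.47 in WM cells. Nfkbid, another nuclear IkB gene, fell by 0.999 and 1.202 on the log2 scale. Rela, the gene of the main activating subunit p65, had values of 0.36 (adjusted p = 0.24) and -0.12 (adjusted p = 0.72). Between origins at 24 hr, 5 genes of these lists, whose sizes are given above, passed (background 1.68% higher). Zfp36, whose protein degrades cytokine mRNAs, was higher in WM cells by 1.47 ± 0.27 (adjusted p = 0.002), and Nlrc5, Bcl2a1d and Ccrl2 were also higher, while Commd1 was lower by a difference of -0.46. Bcl2a1d, an anti-apoptotic relative of Bcl2, was the only gene of the lists called at 0 hr with all libraries (2.25 ± 0.35, background 1.21% in either direction). Leaving out control 6 hr replicate 2, Ccrl2 (0.84), Vcam1 (2.05) and Traf3 (0.72) were also called higher in WM cells at 0 hr (background 1.01% higher). In that setting 10 genes of the lists, the same 5 among them, were called at 24 hr (background 2.42% higher).

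Across the 24 libraries, the genes whose log2 level was most like that of Tnf were Ier3 (Pearson r = 0.914), Cyp4f16 (0.881), Ccl3 (0.880), Slc13a3 (0.875) and Cxcl2 (0.869). For Nfkbia they were Cxcl16 (0.942), Ets2 (0.936), Map2k3 (0.931), Smim3 (0.918) and Tlr2 (0.909). These are descriptions over libraries that share LPS groups. Without control 6 hr replicate 2, Ier3, Cyp4f16 and Ccl3 stayed among the 5 most like Tnf, joined by Csf1 (0.901) and Ccl2 (0.895), and Brpf1 (0.897) took the place of Tlr2 for Nfkbia.

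In the GLOBAL table no member was called between repopulated and control microglia, nor was any other of the 16651 genes tested (background 0%). The paper itself reports differentially expressed genes for this comparison, although few. The absence of calls thus belongs to the test used here and does not show that the cells were alike. By limma 3 members and 1504 genes had an unadjusted p under 0.05. Rel was at 46.0, 37.2 and 44.9 FPKM in repopulated and 29.0, 28.8, 28.1 and 36.1 FPKM in control libraries (log2 0.48, adjusted p = 0.39). Nfkbie was at 39.2, 36.7 and 37.5 FPKM against 27.1, 20.2, 24.3 and 35.6 FPKM (log2 0.51, adjusted p = 0.47), and Tnfaip3 at 83.5, 72.6 and 74.4 FPKM against 55.6, 66.2, 61.0 and 68.4 FPKM (log2 0.29, adjusted p = 0.55). For these 3 genes every repopulated library was above every control library, a pattern that 5.83% of all genes had. Nfkbia was at 407 to 526 FPKM against 310 to 461 FPKM, Nfkbiz at 90.7 to 133 FPKM against 85.4 to 115 FPKM, and Tnf at 49.1 to 64.1 FPKM against 46.9 to 73.5 FPKM, so these groups overlapped. Overlap was also seen for Nfkb1 (39.2 to 44.3 against 29.1 to 45.8 FPKM), Nfkb2 (23.5 to 30.0 against 22.04 to 30.2 FPKM), Relb (23.8 to 29.6 against 14.6 to 27.5 FPKM) and Nfkbib (34.98 to 47.4 against 28.4 to 45.7 FPKM). The log2 differences of all 10 genes lay between -0.11 for Tnf and 0.51 for Nfkbie, with a median of 0.27 against 0.01 over all genes. Summed neutrophil markers were 2172 to 23217 FPKM in the control and 1289 to 4672 FPKM in the repopulated libraries, so these overlapped. The sums that did not overlap were those of border-associated macrophages (32.1 to 55.0 and 18.3 to 31.7 FPKM), astrocytes (30.2 to 32.0 and 24.1 to 28.6 FPKM) and neuroblasts (4.30 to 9.16 and 3.24 to 4.10 FPKM). The part of these cells was not tested.

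In the table of SVZ tissue 7 of the 9 listed genes passed the filter on low values, Rel and Nfkbiz staying below it. Nfkbia (32.4 ± 4.94 FPKM, n = 5) and Nfkbib (25.4 ± 4.37 FPKM) were the most abundant in control tissue, and the other 7 were between 0.776 and 2.53 FPKM. PLX3397 took the summed microglia markers from 405 to 560 FPKM down to 17.1 to 20.7 FPKM, and they stood at 37.6 to 50.4 FPKM at 5 days of recovery. Over the same groups Nfkb1 was at 1.71 to 2.597 FPKM in control tissue, 1.28 to 1.79 FPKM after 14 days of PLX3397 and 1.62 to 1.97 FPKM in recovery, and Nfkbia at 26.7 to 39.9, 27.0 to 37.2 and 27.5 to 46.3 FPKM. The ranges in the same order were 1.32 to 2.30, 1.32 to 2.26 and 0.973 to 1.66 FPKM for Nfkb2, 2.04 to 2.95, 2.27 to 2.73 and 1.17 to 2.92 FPKM for Relb, and 0.704 to 1.74, 0.726 to 1.14 and 0.607 to 1.25 FPKM for Tnfaip3. All 5 genes overlapped between control tissue and each treated group, although the microglia markers did not. Nfkb1 had a value of -0.26 (adjusted p = 0.47) after 14 days of PLX3397, and the other 6 lay between -0.22 and 0.12. No member was called after 14 days (background 1.26%, 1 member and 866 of 14151 genes at an unadjusted p under 0.05 by limma), at 5 days of recovery against control (background 1.27%, 1 member, Nfkbie, and 2346 genes) or between the treated groups (background 0.325%, no member and 2338 genes). Control replicate 1 held 21268 FPKM of summed ependyma and choroid plexus markers, against 29.5 to 133 FPKM in the other 14 libraries, and without it no member was called either. Nfkbiz, below the filter, was at 0.733 to 0.840 FPKM in control tissue and 0.294 to 0.720 FPKM in recovery, so every recovery library was below every control library, a pattern that 1.97% of the tested genes had. Besides microglia, marker sums that did not overlap between control and recovery were those of astrocytes (1173 to 1613 and 1664 to 2590 FPKM), erythrocytes (19.2 to 56.3 and 61.1 to 244 FPKM) and border-associated macrophages (3.90 to 7.72 and 1.38 to 3.14 FPKM), and their part was not tested. When genes were not filtered its difference was -0.23 (unadjusted p = 0.0483, adjusted p = 0.305, limma). Reads were few for several genes, with 6 to 23 per library for Rel, 9 to 33 for Nfkbie and 8 to 31 for Nfkbiz. Of the pathway lists, 1 of 15 genes of the Toll-like receptor arm and 1 of 9 of the TNF receptor arm were lower after 14 days of PLX3397, and none in the other 4 lists. Cd14, the LPS co-receptor of myeloid cells, fell by 1.78 on the log2 scale after 14 days of PLX3397 (adjusted p = 8.5e-05), and Tnfrsf1b, the receptor for TNF on immune cells, by 0.59 (adjusted p = 0.0025). At 5 days of recovery the same lists held the same counts, with Cd14 at -1.21 (adjusted p = 0.0064) and Tnfrsf1b at -0.53 (adjusted p = 0.009), both lower than in control tissue.

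**Figure D4:**
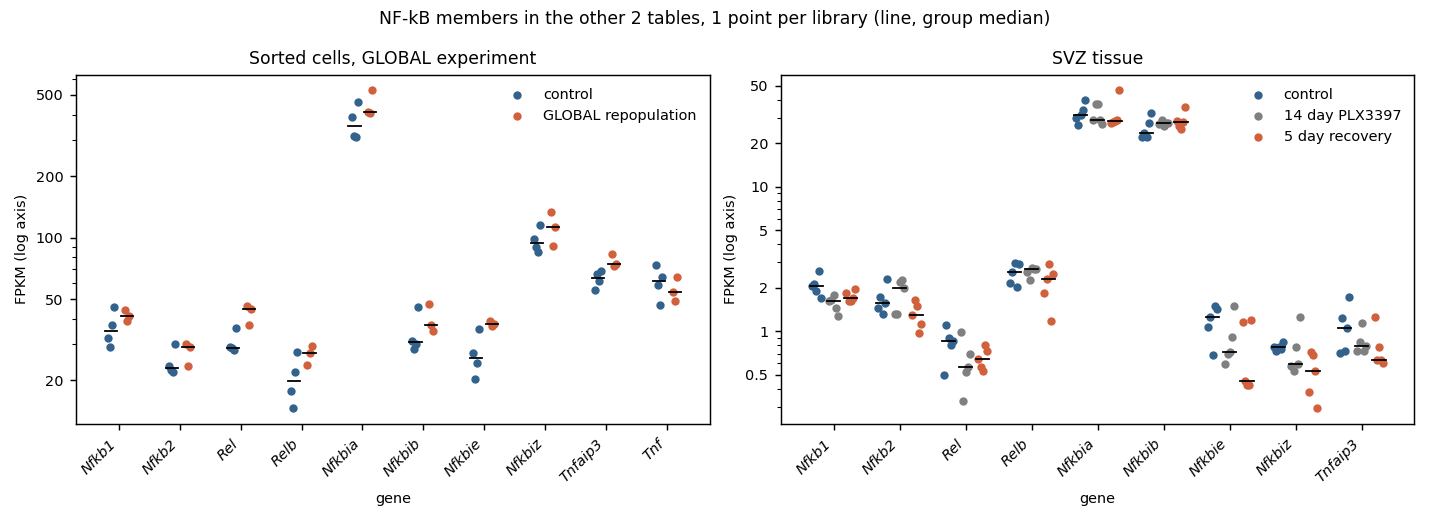
FPKM (log scale) of each gene in every library of the GLOBAL table (control and repopulated microglia) and the SVZ table (control, 14 days of PLX3397, 5 days of recovery), with a line at each group median. The groups overlap for most genes, and Rel, Nfkbie and Tnfaip3 of the GLOBAL table are the 3 for which every repopulated library lies above every control library.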

How the data were processed

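The authors sorted cells or dissected tissue, made Smart-seq2 libraries, and per the paper's methods aligned paired-end reads with STAR and counted them with featureCounts. The labels name mm10, but for all 46 libraries give an extraction from dissected brain regions and another library preparation, so sorting and preparation rest on the methods. The labels' processing notes give no versions. The deposited values are FPKM (called RPKM in the methods) in 3 tables normalized separately, with 15285, 19930 and 15695 genes. Symbols that a spreadsheet had turned into dates (25 in the SVZ table) were restored through Entrez identifiers.

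Groups came from the labels. Genes at FPKM of at least 1 in at least 3 libraries were tested (12684, 16651 and 14151 genes) with limma 3.58.1 in R 4.3.3 (lmFit, eBayes with trend) on log2(FPKM + 1), all groups of a table in a single fit, 2-sided, with Benjamini-Hochberg adjustment over all tested genes and a threshold of 0.05. Fold changes on this scale understate those of low genes. The tests were checked on simulated data. Tables were handled with Python 3.11.15, pandas 2.3.3, NumPy 2.4.6 and SciPy 1.17.1.

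The 10 genes and all lists were chosen with earlier results of these data known. All 10 are named. From the pathway lists, counts are given, naming Rela, Tlr4, Tnfrsf1a, Tnfrsf1b, Ikbkb, Ikbke, Map3k14, Cyld, Bcl3, Nfkbid and Tnip3 and, per list and comparison, at most the 3 called genes with the largest change. For Tnf and Nfkbia the 5 genes most alike by Pearson r are named. Il1b, Ccl3 and Saa3 in control 6 hr replicate 2 were chosen after their values were seen. Alternatives were the pseudocount, the filter, another scaling, the eBayes trend, the groups fitted, a replicate block and leaving out each library.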

Additional observations from a re-analysis of the deposited data

Results flagged for a closer look

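Of 87 groups of 4 or 5 libraries over the 10 genes, 19 held a library whose gap to its nearest neighbour exceeded Dixon's 95% limit for the range of its group. Chance alone gives about 1 in 20. In 9 of them the library was control 6 hr replicate 2, at 72.6 FPKM for Nfkb1, 171 FPKM for Nfkb2, 79.3 FPKM for Rel, 4239 FPKM for Nfkbia, 252 FPKM for Nfkbib, 121 FPKM for Nfkbie, 160 FPKM for Nfkbiz, 512 FPKM for Tnfaip3 and 637 FPKM for Tnf. For Relb it was also the highest of its group, but within the limit.

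Another 5 values of the WM table were far from their group: Rel at 69.9 FPKM in WM 0 hr replicate 1, Nfkbia at 1224 FPKM (the lowest) in WM 6 hr replicate 4, Nfkbie at 24.3 FPKM in WM 6 hr replicate 1, Nfkbib at 71.0 FPKM in control 24 hr replicate 1, and Nfkbie at 19.5 FPKM (the lowest) in control 24 hr replicate 4. In the GLOBAL table control replicate 4 was the highest for Rel (36.1 FPKM) and Nfkbib (45.7 FPKM). In the SVZ table Nfkbia was at 46.3 FPKM in recovery replicate 5, and Tnfaip3 at 1.14 FPKM in 14 day PLX3397 replicate 3 and at 1.25 FPKM in recovery replicate 1. No cause was tested for any of them.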

How the results depend on the processing

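Over 4311 recomputed values of single genes, 4096 kept their direction and side of the threshold, 97 lost a call, 54 gained one and 64 changed sign. None of the 22 called of 151 values changed sign. Counts of called members depended on which groups shared the fit: with only the groups compared, 6 became 3 at 6 hr in control microglia, 1 became 6 at 24 hr against 0 hr and 1 became 0 at 24 hr against 6 hr in control microglia, 4 became 9 at 24 hr against 6 hr in WM cells, 0 became 3 between origins at 0 hr, and 2 became 5 at 24 hr. With quantile scaling, control microglia gave 3 at 24 hr against 0 hr and 2 against 6 hr. Between origins at 24 hr the count was 1 with a pseudocount of 0.1, no filter, median-ratio scaling, no trend, or the replicate block. Library preparation is not settled by the sources. The labels do not speak of pooled animals, and the study counts n in mice.

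Leaving out 1 library gave 4 to 7 called members at 6 hr in control microglia, 0 to 6 at 24 hr against 0 hr and 0 to 3 against 6 hr. In WM cells these were 3 to 5, 3 to 6 and 2 to 9. Between origins the range was 0 to 1 at 0 hr and 1 to 6 at 24 hr, and for the interactions 0 to 1 (24 against 0 hr) and 0 to 2 (24 against 6 hr). The upper ends came without control 6 hr replicate 2, joined by control 6 hr replicate 3 for control 24 hr against 6 hr (3). The lower ends came without control 0 hr replicates 1 or 2 (4 at 6 hr), control 0 hr replicate 2 or control 24 hr replicate 1 (0 at 24 hr), control 24 hr replicate 4 (0 against 6 hr), WM 0 hr replicate 2 (3 at 24 hr), and WM 6 hr replicate 4 or WM 24 hr replicates 1 or 2 (2 against 6 hr).

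Replicate numbers did not pair the libraries: 55 same-number pairs of the WM table had correlations from -0.19 to 0.27, with 7 over 0.1. Of the others, 2 of 3 were over 0.1 in the GLOBAL table (0.0562 to 0.137), and 5 of 15 in the SVZ table (-0.15 to 0.49). The replicate block moved no other count of called members by over 1.5 times.

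Values that changed sign were not called and at most 0.44 in size. The interaction of 24 against 0 hr for Nfkb2 was -0.000292 with a pseudocount of 0.1, -0.00467 with quantile scaling and -0.000257 with the replicate block, and that of 6 against 0 hr for Tnf was 0.00314 with median-ratio scaling. Quantile scaling gave -0.0298 for Nfkbiz at 6 hr and -0.0108 for Nfkbie at 24 hr in WM cells, and the block gave 0.0034 for Nfkbie at 24 hr in control microglia. Leaving out 1 library spanned 0 as follows. In control microglia these were Nfkbie at 24 against 0 hr (-0.071 to 0.0743) and, at 24 against 6 hr, Nfkb1 (-0.18 to 0.25), Tnfaip3 (-0.79 to 0.36) and Tnf (-0.20 to 0.33). In WM cells they were Relb (-0.0609 to 0.18) and Nfkbiz (-0.0293 to 0.15) at 6 hr, Relb (-0.13 to 0.0512) and Nfkbie (-0.0175 to 0.14) at 24 hr, and Relb at 24 against 6 hr (-0.23 to 0.00995). Between origins they were Nfkb1 at 0 hr (-0.085 to 0.00275) and, at 6 hr, Rel (-0.27 to 0.17), Nfkbia (-0.44 to 0.0614), Nfkbiz (-0.19 to 0.24) and Tnf (-0.49 to 0.0387). Interactions were Nfkbiz (-0.43 to 0.00119) and Tnf (-0.22 to 0.34) at 6 hr, and Nfkb2 (-0.17 to 0.12) and Nfkbie (-0.0348 to 0.15) at 24 against 0 hr. In the SVZ they were Relb (-0.0154 to 0.0798) and Nfkbia (-0.0924 to 0.0475) after 14 days of PLX3397, Nfkbia (-0.18 to 0.0308) in recovery against control, and Nfkbia (-0.16 to 0.0416) and Nfkbib (-0.0282 to 0.0897) in recovery against PLX3397. The cause was not tested.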
